A study of Caenorhabditis elegans with 6 samples.

Results

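The glutathione S-transferase genes were taken from the deposited expression table by name, as every gene whose name starts with *gst-*, *gsto-* or *gstk-*. They were 32 of the 12798 genes listed, with 70 of the 53267 listed exons. Of these, 28 are numbered *gst-* genes, 2 are *gsto-* genes (omega class) and 2 are *gstk-* genes (kappa class). The Ensembl release 115 annotation of the WBcel235 assembly names 49 such genes. The other 17, *gst-2* among them, are not listed in the table and were not analysed here.

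Polyadenylated RNA of pooled whole *Caenorhabditis elegans* larvae was sequenced in 6 libraries, 1 for each condition. The *gk165* (L2) worms are *sdhb-1(gk165)* mutants, which lack part of the gene for the iron-sulphur subunit of succinate dehydrogenase. They stop growing at the L2 stage. The *gk165* deletion also removes part of the neighbouring gene *cup-15*, and the strain is kept over the balancer *mIn1*. These worms were set against wild-type Bristol N2 worms at L2 and at L3, from which they differ in both genes. The R244H (L4) worms are labelled *sdhb-1(gk165)/mIn1;R244H*. They carry a single-copy *sdhb-1* transgene with the R244H point mutation on the X chromosome, driven by the *sdhb-1* promoter, in the *gk165* background, and the strain is kept over the balancer *mIn1*. They were set against wild-type N2 worms at L4, here WT (L4), and against WTR (L4), labelled *sdhb-1(gk165);WTR*, which carries the wild-type transgene at the same kind of site in the same *gk165* background. Each transgene rests on 1 insertion line that also carries *unc-119(+)*. How *gk165* and R244H animals were sorted from the balanced stocks for RNA is not given in the sources used here.

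Glutathione S-transferases join the tripeptide glutathione to reactive electrophiles, such as the aldehydes formed when lipids are oxidised, and so make them soluble and ready for export. Nematodes have a large family of them, most of it in a sigma-like class that has expanded in this phylum, beside small omega, kappa and zeta classes. In *C. elegans* several members are induced by SKN-1, the counterpart of mammalian Nrf2, and *gst-4* is the member most used as a reporter of that factor.

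The reads behind each deposited value were worked out from the steps between values, in whole reads or in fractions where a read was shared between exons. By these reads the libraries were shallow, with 188742 to 867446 reads on listed exons, and 7.87% to 50.3% of the exons had no read in a library. Reads were summed over the listed exons of each gene. Levels are given as RPKM (CPM per kilobase of listed exon). CPM are reads scaled to 1000000 of the effective library size, by which the authors scaled the deposited values. Ratios are of CPM between 2 libraries with exact binomial (Clopper-Pearson) 95% intervals. Only in WT (L2) was the effective size (232363) above the listed reads (188742). Log2 ratios over WT (L2) therefore stand higher by CPM than by share of listed reads. With 1 library per condition there is no replicate check and no test between genotypes, and the intervals compare 2 libraries for counting error only. A gene was called higher or lower in a mutant when it differed at least 2-fold from both of its controls, with both intervals beyond no change. In whole worms, fewer cells of a type and less RNA per cell cannot be told apart. The *sdhb-1* gene itself had 5 reads in *gk165*, against 32 for WT (L2) and 142 for WT (L3), and 68 reads in R244H, against 165 for WT (L4) and 44 for WTR.

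The family made up a small part of each library. It took 0.103% of the listed reads in *gk165* (288.5 reads, interval 0.0916% to 0.116%), against 0.0751% for WT (L2) (141.83 reads) and 0.110% for WT (L3) (640.66 reads). In R244H it took 0.0675% (273.83 reads, interval 0.0598% to 0.0760%), against 0.0729% for WT (L4) (632.16 reads) and 0.0902% for WTR (489.48 reads). The family total was 1044 CPM in *gk165*, against 610 for WT (L2) and 1151 for WT (L3), and 700 CPM in R244H, against 791 for WT (L4) and 938 for WTR. The log2 ratio of this total was 0.77 for *gk165* over WT (L2) (interval 0.48 to 1.07) and -0.14 over WT (L3) (-0.35 to 0.06). It was -0.18 for R244H over WT (L4) (-0.38 to 0.03) and -0.42 over WTR (-0.64 to -0.20). The total of *gk165* therefore lay above that of L2 worms but within counting error of that of L3 worms, and the total of R244H lay below that of WTR.

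Of the 32 genes, 25 had more than 3 reads in at least 1 library and 13 had 20 or more. The other 7, *gst-15*, *gst-16*, *gst-30*, *gst-33*, *gst-35*, *gst-38* and *gst-41*, had at most 3 reads in every library, and no ratio is given for them. The number of members without a read was 3 in *gk165*, against 10 for WT (L2) and 4 for WT (L3), and 5 in R244H, against 4 for WT (L4) and 6 for WTR, so that an absent member says little at these depths: 3 reads of a member correspond to 10.9 CPM in *gk165*, 12.9 CPM in WT (L2) and 3.75 CPM in WT (L4).

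**Figure D1:**
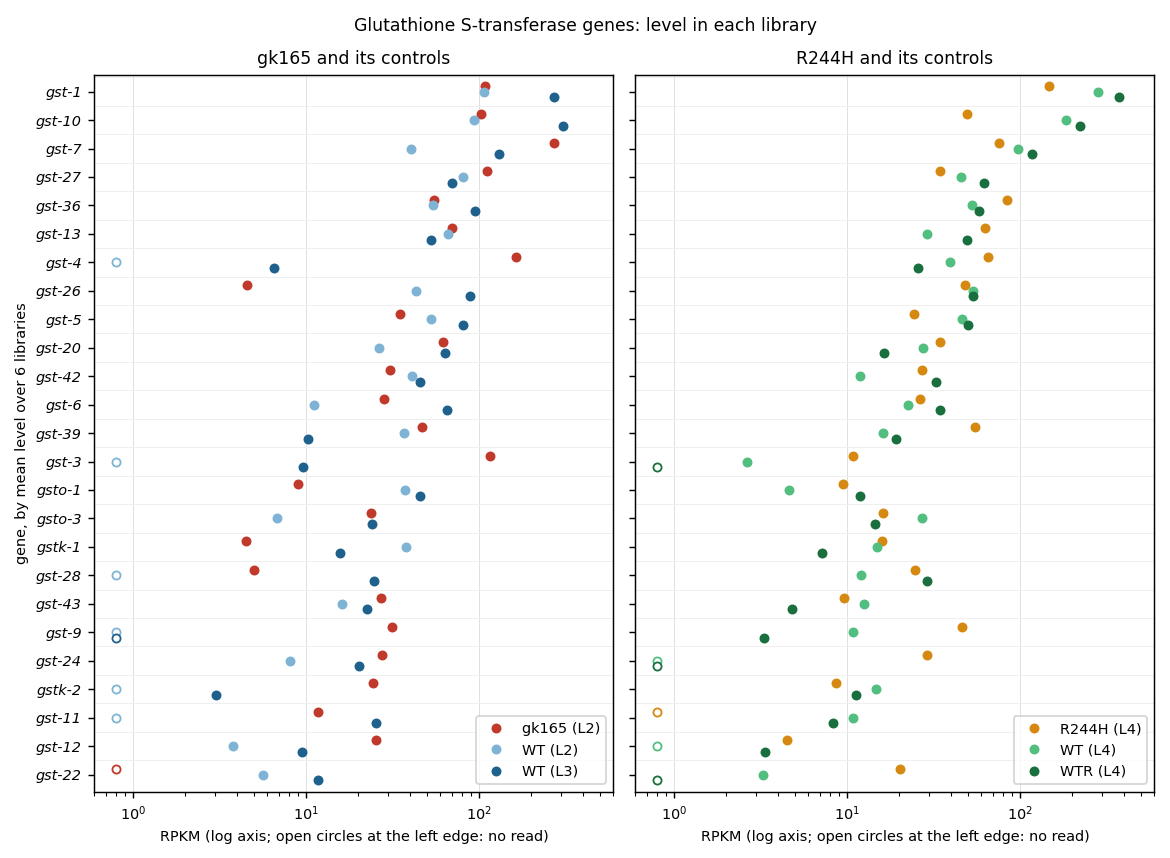
Level of the 25 glutathione S-transferase genes with more than 3 reads in at least 1 library, as RPKM on a log axis, with 1 point per library and open circles at the left edge for libraries without a read. On the left *gst-4* and *gst-3* of *gk165* stand far to the right of WT (L2) and WT (L3) while *gst-26* stands far to the left; on the right *gst-10* of R244H stands left of WT (L4) and WTR.

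The members with the highest mean level over the 6 libraries were *gst-1*, *gst-10*, *gst-7*, *gst-27* and *gst-36*. *gst-1* (WBGene00001749, III, 9059314 to 9060181) had 109 RPKM in *gk165*, against 107 for WT (L2) and 273 for WT (L3), and 147 RPKM in R244H, against 282 for WT (L4) and 375 for WTR. *gst-10* (WBGene00001758, V, 2561690 to 2564701), whose enzyme is known to conjugate the lipid aldehyde 4-hydroxynonenal, had 103 RPKM in *gk165*, against 94.3 for WT (L2) and 308 for WT (L3), and 49.4 RPKM in R244H, against 185 for WT (L4) and 222 for WTR. These were the first and second members by level in WT (L2), WT (L4) and WTR, and in WT (L3) *gst-10* came before *gst-1*. In *gk165* they came behind *gst-7*, *gst-4*, *gst-3* and *gst-27*. In R244H *gst-1* still led, followed by *gst-36*, *gst-7*, *gst-4* and *gst-13*.

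The make-up of the family's reads showed the same shift. *gst-1* and *gst-10* together held 15.6% of the family's reads in *gk165* (interval 11.6% to 20.3%), against 25.4% for WT (L2) (18.4% to 33.3%) and 38.9% for WT (L3) (35.1% to 42.7%). In R244H they held 21.5% (16.8% to 26.9%), against 45.6% for WT (L4) (41.6% to 49.5%) and 49.0% for WTR (44.6% to 53.6%). *gst-3*, *gst-4* and *gst-7* together held 37.4% in *gk165* (31.9% to 43.4%), against 4.94% for WT (L2) (2.0% to 9.89%) and 9.29% for WT (L3) (7.22% to 11.9%). These are the 3 members called higher in *gk165* below. Their larger share there follows from that call and is no separate support for it. The same 3 genes held 16.4% in R244H (12.2% to 21.4%), against 13.4% for WT (L4) (10.9% to 16.4%) and 11.6% for WTR (8.95% to 14.8%). These shares are of reads and not of length-scaled levels, and a share of one member moves with the others.

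**Figure D2:**
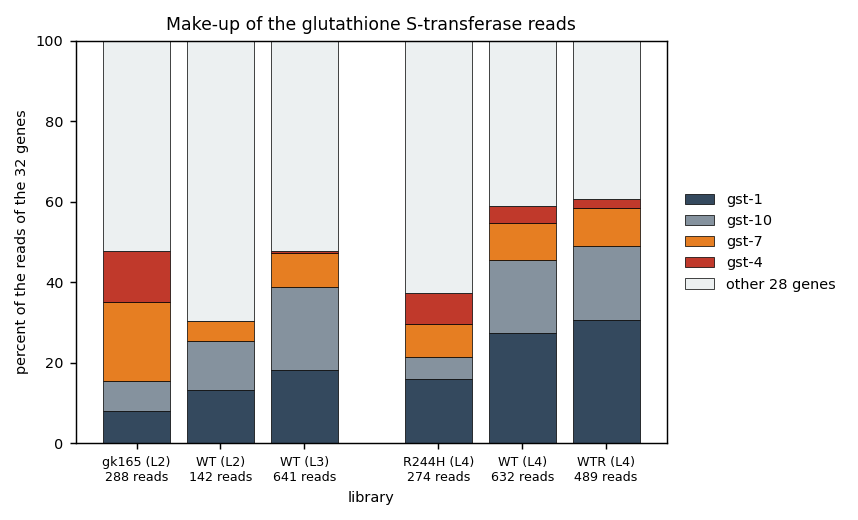
Share of the reads of the 32 glutathione S-transferase genes taken by *gst-1*, *gst-10*, *gst-7*, *gst-4* and the other 28 genes, in percent, with 1 bar per library and the family's reads under each bar. *gst-7* and *gst-4* take the largest part of the named shares in *gk165*, and *gst-1* and *gst-10* take the largest part in WT (L2), WT (L3), R244H, WT (L4) and WTR.

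In *gk165*, 3 of the 25 members with more than 3 reads in at least 1 of the libraries compared were called higher, *gst-3*, *gst-4* and *gst-7*, and 1, *gst-26*, was called lower. Of all 9494 genes compared in the same way, 9.66% were called higher and 10.5% lower, where the family had 12% higher and 4% lower, counts too small to be told apart from the background. *gst-3* and *gst-4* passed the minimum of reads only through *gk165* itself. The median log2 ratio of the members with a ratio was 0.34 over WT (L2) (21 members), where that of all genes was 0.17, and -0.01 over WT (L3) (25 members), where that of all genes was -0.26. Members without a read in 1 of the libraries entered these medians at the bound that 3 reads give. Such a bound can have the sign opposite to the reads. *gst-22*, with 0 reads in *gk165* and 5 for WT (L3), entered at 0.27. For well-covered genes the median log2 ratio of *gk165* was -0.09 over WT (L2) and 0.08 over WT (L3), each of opposite sign to that of all genes.

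*gst-4* (WBGene00001752, IV, 10142135 to 10143099, plus strand) had 37 reads in *gk165*, against 0 for WT (L2) and 3 for WT (L3). In levels this was 163 RPKM in *gk165*, against at most 15.7 RPKM (the level of 3 reads) for WT (L2) and 6.56 RPKM for WT (L3). Relative to WT (L2), with the library without a read set at 3 reads, the gene was at least 10.4-fold higher in *gk165*, and its log2 ratio to WT (L3) was 4.64 (interval 2.98 to 6.98). *gst-4* was the second member by level in *gk165*, whereas it had no more than 3 reads in L2 or L3 worms of the wild type.

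Its neighbour *gst-3* (WBGene00001751, IV, 10139380 to 10139887, minus strand) lies 2247 bp away. It had 15 reads in *gk165* (116 RPKM), against 0 for WT (L2) and 2.5 for WT (L3). Relative to WT (L2) the gene was at least 4.21-fold higher in *gk165*, and over WT (L3) its log2 ratio was 3.6 (interval 1.81 to 7.09). The 2 genes are on opposite strands, and *gst-2*, which the annotation places between them, is not listed in the table.

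*gst-7* (WBGene00001755, II, 4882062 to 4883358) had 56 reads in *gk165*, against 7 for WT (L2) and 54 for WT (L3), or 272 RPKM in *gk165*, against 40.4 for WT (L2) and 130 for WT (L3). The log2 ratio was 2.75 over WT (L2) (interval 1.61 to 4.13) and 1.06 over WT (L3) (0.50 to 1.63). The second ratio is just past the 2-fold limit, and when ratios were centred on the median gene *gst-7* was no longer called. It was the highest member by level in *gk165*.

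*gst-26* (WBGene00001774, II, 15163808 to 15164646) had 1 read in *gk165*, against 8 for WT (L2) and 39 for WT (L3). In log2 ratio *gk165* was at -3.25 over WT (L2) (interval -8.72 to -0.35) and -4.27 over WT (L3) (-9.61 to -1.71). The next gene on the same strand, *gst-27* (WBGene00001775), lies 243 bp away and had 23 reads in *gk165*, against 14 for WT (L2) and 29 for WT (L3). This gene was at 0.47 on the log2 scale over WT (L2) (-0.55 to 1.54) and 0.68 over WT (L3) (-0.18 to 1.52), so the intervals of the 2 neighbours did not overlap over WT (L3) and did over WT (L2). In R244H *gst-26* had 15 reads, against 34 for WT (L4) and 22 for WTR, with intervals that hold no change. How reads that fit more than 1 member of such a cluster were assigned is not given in the sources used here.

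Against WT (L2) the leading genes of the wild type did not move beyond counting error in *gk165*. *gst-1* had 23 reads in *gk165*, against 19 for WT (L2) and 116.49 for WT (L3), with a log2 ratio of 0.03 over WT (L2) (-0.91 to 0.98) and -1.33 over WT (L3) (-2.04 to -0.67). *gst-10* had 22 reads in *gk165*, against 17 for WT (L2) and 133 for WT (L3), with a log2 ratio of 0.12 over WT (L2) (-0.86 to 1.13) and -1.58 over WT (L3) (-2.31 to -0.93). For both genes *gk165* thus stood close to the L2 control and below the L3 control, while *gst-36* had intervals that hold no change against both, with 11.5 reads in *gk165*, against 9.5 for WT (L2) and 40 for WT (L3).

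**Figure D3:**
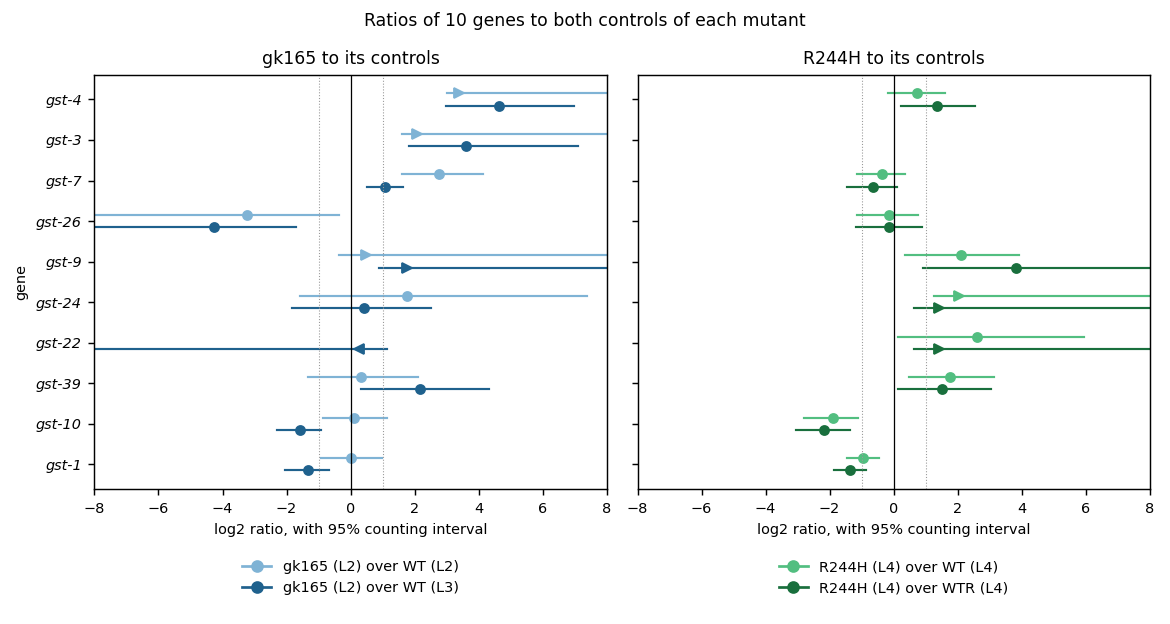
Log2 ratio of 10 glutathione S-transferase genes in *gk165* and in R244H to both controls of each, with 95% counting intervals as lines (drawn up to 8 on either side), dotted lines at 2-fold, and triangles for bounds where 1 library had no read. *gst-4*, *gst-3* and *gst-7* lie right of 2-fold in *gk165* and *gst-26* left of it, whereas *gst-9*, *gst-24*, *gst-22* and *gst-39* lie right of 2-fold and *gst-10* left of it in R244H.

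The *gk165* library differed from the others in where reads fell along genes. Over 923 genes with at least 20 reads in every library, the median share of reads in the listed exon nearest the 3' end was 58.7% in *gk165*, against 42.2% for WT (L2) and 38.6% for WT (L3), and 31.03% in R244H, against 32.9% for WT (L4) and 33.6% for WTR. Over the 22 members with more than 1 listed exon the share of summed reads was 80.2% in *gk165*, against 61.6% for WT (L2) and 68.3% for WT (L3).

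In *gst-4* and *gst-7* most reads of *gk165* lay in the last exon, but *gst-4* had few reads in its controls. The last exon of *gst-7* holds 555 of its 745 listed bp, and most reads of its controls also lay there. In *gst-4*, 33 of the 37 reads of *gk165* lay in the last exon (10142738 to 10143099), against 0 of 0 in WT (L2) and 2 of 3 in WT (L3). In *gst-7*, 52.5 of 56 reads of *gk165* lay in the last of 2 exons, against 6 of 7 in WT (L2) and 44 of 54 in WT (L3). In *gst-3*, which has a first exon of 128 bp and a second of 341 bp, 9 of the 15 reads of *gk165* lay in the exon nearest the 3' end. The leading genes differed. In *gst-1* the last exon had 14 of 23 reads in *gk165*, against 15 of 19 in WT (L2) and 72.33 of 116.49 in WT (L3). In *gst-10* it had 22 of 22 reads in *gk165*, against 12.5 of 17 in WT (L2) and 117 of 133 in WT (L3).

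In *gst-26* the order was the other way. The single read of *gk165* lay in the first exon and the last exon had 0 reads, against 7 of 8 reads in the last exon in WT (L2) and 31 of 39 in WT (L3). With reads of the 3'-most exon only, the same 3 genes were called higher and *gst-26* lower in *gk165*. Calls over all genes then moved from 917 higher and 993 lower to 1102 and 348. The median log2 ratio of the members over WT (L2) moved from 0.34 to 1.24. This setting keeps the end of the gene where *gk165* reads gather, so it is no check on read position. The part of read position in the size of these ratios was not tested.

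**Figure D4:**
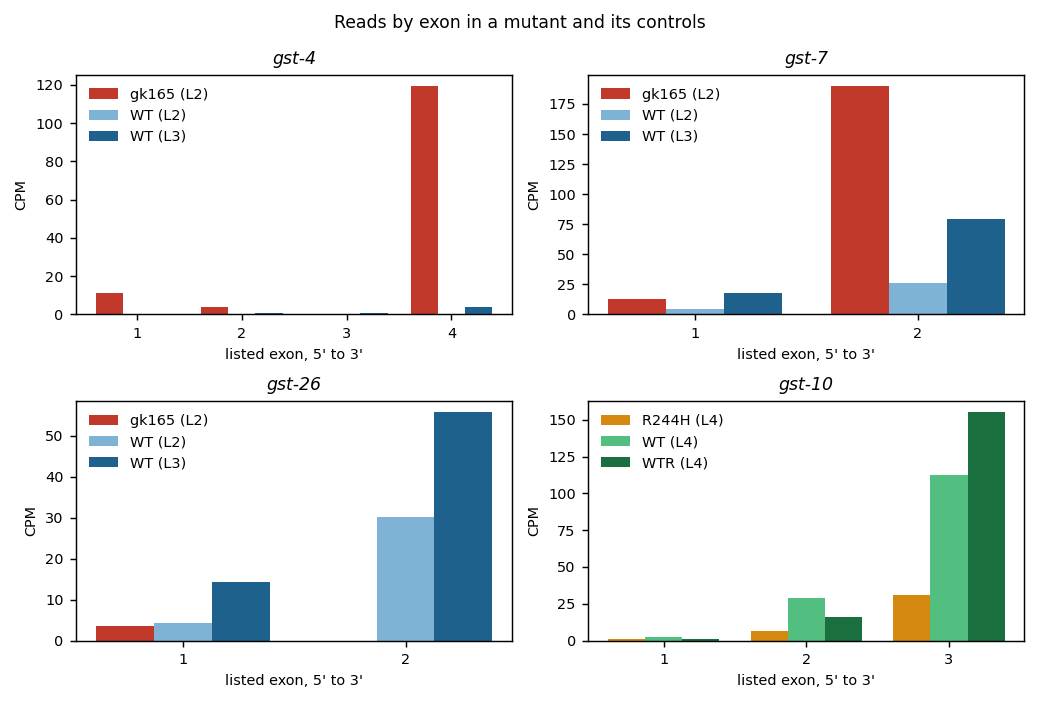
Level in CPM of each listed exon of *gst-4*, *gst-7* and *gst-26* in *gk165*, WT (L2) and WT (L3), and of *gst-10* in R244H, WT (L4) and WTR, with exons in order from the 5' end. The bars of *gk165* are highest in the last exon of *gst-4* (33 of 37 reads) and *gst-7* and absent from the last exon of *gst-26*, and the bars of R244H are below both controls in the second and the third exon of *gst-10*.

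In R244H, 4 of 23 members were called higher, *gst-9*, *gst-22*, *gst-24* and *gst-39*, and 1, *gst-10*, was called lower. Of all 10677 genes compared in the same way 6.7% were called higher and 16.2% lower, where the family had 17.4% and 4.35%. Of the 4 higher members 2, *gst-22* and *gst-24*, passed the minimum of more than 3 reads only through R244H itself. The count of higher members was 2 with a minimum of 10 reads and 0 with more than 20, so no excess of the family over all genes is read from these counts. The median log2 ratio of the members was 0.27 over WT (L4) (22 members), where that of all genes was -0.29, and -0.14 over WTR (21 members), where that of all genes was -0.32. In the median over WT (L4), *gst-11* entered at a bound of 0.62, a positive value, although it had 0 reads in R244H and 4 for WT (L4). For well-covered genes the median log2 ratio of R244H was 0.08 over WT (L4) and 0.10 over WTR. How the members stand to other genes therefore depends on which genes they are set against.

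Of the members called in R244H, *gst-10* had the most reads behind it, with 15 in R244H, against 115 for WT (L4) and 90 for WTR. In R244H its log2 ratio was -1.91 over WT (L4) (interval -2.79 to -1.13) and -2.17 over WTR (-3.07 to -1.37). *gst-10* remained called with the last exon alone. *gst-1* had 44 reads in R244H, against 172.99 for WT (L4) and 149.99 for WTR. R244H was at a log2 ratio of -0.94 over WT (L4) (-1.46 to -0.46), just short of 2-fold, and -1.35 over WTR (-1.87 to -0.86). Both genes that lead the family in L4 controls therefore had lower levels in R244H, and without them the log2 ratio of the family total was 0.35 over WT (L4) and 0.20 over WTR.

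The members called higher in R244H had few reads. *gst-39* (WBGene00001787, II, 15171163 to 15171912) had 15 reads in R244H, against 9 for WT (L4) and 7 for WTR, or 54.9 RPKM in R244H, against 16.1 for WT (L4) and 19.2 for WTR. The log2 ratio of R244H was 1.77 over WT (L4) (interval 0.48 to 3.14) and 1.51 over WTR (0.13 to 3.05). It was also above WT (L3) in *gk165*, with 9 reads against 4, but not beyond counting error above WT (L2), with 6 reads.

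*gst-9* (WBGene00001757, II, 4892998 to 4893573) had 10.5 reads in R244H, against 5 for WT (L4) and 1 for WTR. On the log2 scale the ratio was 2.1 over WT (L4) (0.35 to 3.93) and 3.81 over WTR (0.92 to 9.18). It had 5 reads in *gk165*, against 0 for WT (L2) and 0 for WT (L3), so that every read of this gene in L2 and L3 worms came from the mutant. Of these 5 reads the bound was at least 1.40-fold over WT (L2), with a counting interval that reaches below no change, and at least 3.36-fold over WT (L3).

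*gst-24* (WBGene00001772, II, 13610443 to 13610970) had 6 reads in R244H, against 0 for WT (L4) and 0 for WTR, so that R244H was at least 4.09-fold higher relative to WT (L4) and at least 2.67-fold higher relative to WTR. *gst-22* (WBGene00001770, V, 16231032 to 16232317) had 6 reads in R244H, against 2 for WT (L4) and 0 for WTR. Its log2 ratio was 2.62 over WT (L4) (0.13 to 5.96), and R244H was at least 2.67-fold higher relative to WTR. In *gk165*, *gst-24* had 4 reads, against 1 for WT (L2) and 6 for WT (L3), and *gst-22* had 0 reads, against 1 for WT (L2) and 5 for WT (L3). Neither was called there. Among members with 10 or more reads in at least 1 of the 3 libraries only *gst-9* and *gst-39* were called higher, and among those with more than 20 reads none was. The larger exon of *gst-22* overlaps *F21H7.12* on the other strand, and without that exon *gst-22* was not called.

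*gst-4* was not called in R244H. It had 21 reads in R244H, against 26 for WT (L4) and 11 for WTR, or 65.3 RPKM in R244H, against 39.6 for WT (L4) and 25.7 for WTR. Its log2 ratio was 0.72 over WT (L4) (-0.18 to 1.61) and 1.35 over WTR (0.23 to 2.55). *gst-7* had 22 reads in R244H, against 58 for WT (L4) and 46 for WTR, and both of its intervals hold no change. *gst-3* had 2 reads in R244H, against 1 for WT (L4) and 0 for WTR, so no ratio is given.

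*gst-27* and *gst-36* stayed within counting error of both controls in R244H. *gst-27* had 10 reads in R244H, against 27 for WT (L4) and 24 for WTR, and *gst-36* had 25 reads in R244H, against 32 for WT (L4) and 23 for WTR. The log2 ratio of *gst-27* was -0.40 over WT (L4) (-1.61 to 0.69) and -0.85 over WTR (-2.08 to 0.27), and that of *gst-36* was 0.67 over WT (L4) (-0.14 to 1.47) and 0.54 over WTR (-0.34 to 1.42). These intervals allow changes of 2-fold or more in one direction.

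Cell type markers also differed between the libraries. In R244H all 5 germline markers (*gld-1*, *glp-1*, *pgl-1*, *glh-1* and *cgh-1*) were called lower, with a summed level of 266 CPM in R244H, against 2443 for WT (L4) and 2364 for WTR. Of 9 intestinal markers 2 were called higher in R244H, *elt-2* and *mtl-2*, and the summed level was 15012 CPM in R244H, against 8841 for WT (L4) and 8137 for WTR. Most of this sum was 1 gene, the protease gene *asp-1*, with 10970 CPM in R244H, against 5498 for WT (L4) and 5054 for WTR, and the other 8 markers summed to 4042 CPM in R244H, against 3343 for WT (L4) and 3083 for WTR. In *gk165* the germline sum was 138 CPM, against 125 for WT (L2) and 248 for WT (L3), and 0 of 5 markers were called.

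The intestinal sum was 8014 CPM in *gk165*, against 3714 for WT (L2) and 7788 for WT (L3), with *mtl-2* called higher and *act-5* and *ifb-2* lower, and *elt-2* had 0 reads in *gk165*, against 4 for WT (L2) and 8 for WT (L3). Here too *asp-1* made up most of the sum, with 6682 CPM in *gk165*, against 2328 for WT (L2) and 4887 for WT (L3). Without it the other 8 markers summed to 1332 CPM in *gk165*, against 1386 for WT (L2) and 2901 for WT (L3), so the higher sum over L2 worms was not seen across the rest of the list. The muscle sum was 3323 CPM in *gk165*, against 7252 for WT (L2) and 13487 for WT (L3), with 2 of 4 markers called lower, and the hypodermal sum was 369 CPM, against 1420 for WT (L2) and 966 for WT (L3), also with 2 of 4 lower. Of 5 neuronal markers 1, *snb-1*, was called higher in *gk165* and 0 were called in R244H. In R244H the hypodermal *dpy-7* was called higher and 0 of 4 muscle markers were called. The part of cell make-up in the values of the glutathione S-transferases was not tested.

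The transgene control tells how far 2 L4 libraries with a working *sdhb-1* differed. The *sdhb-1* gene itself was lower in WTR than in WT (L4), at a log2 ratio of -1.29 (-1.81 to -0.80). In R244H *sdhb-1* was at 1.04 over WTR (0.48 to 1.62) and at -0.25 over WT (L4) (-0.68 to 0.17). In WTR over WT (L4), 1 of 21 members was at least 2-fold higher with its interval beyond no change and none was lower, where 3.23% of 10354 genes were higher and 2.95% lower. The 1 gene was *gst-42* (WBGene00001790, X, 11726271 to 11727936), of the zeta class, whose enzyme is known as maleylacetoacetate isomerase in tyrosine breakdown. It had 16.16 reads in WTR and 9 in WT (L4), with a log2 ratio of 1.46 (0.18 to 2.81). The family total was also higher in WTR than in WT (L4), by a log2 ratio of 0.25 (0.07 to 0.42), so that a difference of this size between R244H and 1 of its controls is also seen between the controls.

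Over the larval stages of the wild type the family total was 610 CPM at L2, 1151 CPM at L3 and 791 CPM at L4. In L3 over L2 worms, 4 of 20 members (20%) were at least 2-fold higher with intervals beyond no change, where this held for 8.63% of 8924 genes, and none was lower, where this held for 1.39%. These 4 were *gst-1*, *gst-6*, *gst-7* and *gst-10*. The highest ratio was that of *gst-6*, with 28 reads at L3 and 2 at L2 and a log2 ratio of 2.55 (0.56 to 5.66). That of *gst-10* was 1.71 (0.97 to 2.53). The median log2 ratio of well-covered genes was 0.27 in this comparison, and these ratios were not centred on it.

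In L4 over L3 worms, 1 of 23 members (4.35%) was higher, where 17.8% of 10882 genes were, and 5 (21.7%) were lower, where 11.9% were. *gst-4* was the one that was higher, with 26 reads at L4 and 3 at L3 and a log2 ratio of 2.59 (0.89 to 4.96). The 5 that were lower were *gst-6*, *gst-20*, *gst-24*, *gst-42* and *gsto-1*. *gst-4* was thus low at both earlier stages of the wild type and reached 39.6 RPKM at L4, while *gk165* worms, which are L2 larvae, had 163 RPKM.

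The zeta, omega and kappa members were measured on few reads. *gst-42* had 8 reads in *gk165*, against 9 for WT (L2) and 24 for WT (L3), and 10 in R244H, against 9 for WT (L4) and 16.16 for WTR. It was not called in either mutant. *gst-43* (WBGene00001791, on chromosome I), the other zeta member, had 3 reads in *gk165*, against 1.5 for WT (L2) and 5 for WT (L3), and 1.5 in R244H, against 4 for WT (L4) and 1 for WTR, too few to compare.

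The omega enzymes are related to glutaredoxins and are known to reduce dehydroascorbate. *gsto-1* (WBGene00016204) had 2 reads in *gk165*, against 7 for WT (L2) and 20.5 for WT (L3), and 3 in R244H, against 3 for WT (L4) and 5 for WTR. Its log2 ratio in *gk165* was -2.06 over WT (L2) (-5.36 to 0.34) and -2.35 over WT (L3) (-5.45 to -0.27), which is more than 2-fold lower against both but within counting error of WT (L2). *gsto-3* (WBGene00019636) had 5.5 reads in *gk165*, against 1.33 for WT (L2) and 11.17 for WT (L3), and 5.33 in R244H, against 18.17 for WT (L4) and 6.33 for WTR, with every interval to its controls holding no change.

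The kappa enzymes are known in animals from mitochondria and peroxisomes. *gstk-1* (WBGene00014251) had 1 read in *gk165*, against 7 for WT (L2) and 7 for WT (L3), and 5 in R244H, against 9.5 for WT (L4) and 3 for WTR. Its log2 ratio in *gk165* was -3.06 over WT (L2) (-8.55 to -0.10) and -1.80 over WT (L3) (-7.29 to 1.16). *gstk-2* (WBGene00017054) had 4 reads in *gk165*, against 0 for WT (L2) and 1 for WT (L3), and 2 in R244H, against 7 for WT (L4) and 3.5 for WTR, with intervals that hold no change.

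The other 7 members with more than 3 reads in a library, *gst-5*, *gst-6*, *gst-11*, *gst-12*, *gst-13*, *gst-20* and *gst-28*, had between 0 and 33 reads and none was called in either mutant. *gst-5* had 7 reads in *gk165*, against 9 for WT (L2) and 33 for WT (L3), with a log2 ratio of -0.61 over WT (L2) (-2.27 to 0.98) and -1.23 over WT (L3) (-2.65 to -0.03). *gst-13* had 19 reads in R244H, against 18 for WT (L4) and 20 for WTR, with a log2 ratio of 1.11 over WT (L4) (0.10 to 2.12) and 0.34 over WTR (-0.64 to 1.32). Each of these 2 genes differed from 1 control and not, beyond counting error, from the other.

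The genes lie in groups along the chromosomes. Of the 32 members 17 are on chromosome II, 5 on V, 3 each on III, IV and X, and 1 on I. With neighbours within 10 kb joined, 14 members fell into 4 clusters, of which 3 are on chromosome II and the fourth is the pair *gst-3* and *gst-4* on IV. The cluster of *gst-6*, *gst-7* and *gst-9* (4879885 to 4893573) held 1 gene called higher in *gk165*, *gst-7*, and 1 called higher in R244H, *gst-9*. The cluster of *gst-20*, *gst-24*, *gst-15*, *gst-12* and *gst-16* (13608154 to 13623523) held *gst-24*, called higher in R244H. The cluster of *gst-26*, *gst-27*, *gst-28* and *gst-39* (15163808 to 15171912) held *gst-26*, called lower in *gk165*, and *gst-39*, called higher in R244H. Only in the pair on IV were both members called in the same direction, which is a description of these few genes.

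Exons of 6 members overlap another annotated gene, and whether strand was used in counting is not given in the sources used here. Exon 2 of *gst-4*, which overlaps *dhs-12* on the same strand, had 1 of its 37 reads in *gk165*. Exons of *gst-5*, *gst-22*, *gst-36*, *gsto-1* and *gstk-2* overlap *nos-1*, *F21H7.12*, *scav-5*, *kle-2* and *elo-3* on the opposite strand, and that of *gstk-2* also holds a piRNA on its own strand. Apart from *gst-22*, no call in either mutant changed when these exons were left out.

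The other genes of glutathione use were described from lists, whose counts of calls stand beside 9.66% of all genes called higher and 10.5% lower in *gk165*, and 6.7% higher and 16.2% lower in R244H. With lists of 5 to 9 genes, no list is set apart from all genes by these counts. Of 6 genes of glutathione synthesis and recycling, all listed, 0 were called in *gk165* and 0 in R244H. *gcs-1*, the catalytic subunit of the rate-limiting enzyme of glutathione synthesis and also a SKN-1 target, had 19 reads in *gk165*, against 9 for WT (L2) and 35 for WT (L3). Its log2 ratio was 0.83 over WT (L2) (-0.39 to 2.16) and 0.13 over WT (L3) (-0.76 to 0.98). In R244H it was 0.29 over WT (L4) (-0.32 to 0.94) and 0.00 over WTR (-0.67 to 0.65). *gcs-1* was thus within counting error of all its controls, although a log2 increase of up to 2.16 over L2 worms lies within its interval.

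Glutathione peroxidases use glutathione or thioredoxin to reduce peroxides. Of 8 genes 5 are listed, and 2 of these were called higher in *gk165* (9.66% of all genes) and 0 in R244H (6.7%). *gpx-7* had 17 reads in *gk165*, against 2 for WT (L2) and 2 for WT (L3), with log2 ratios of 2.84 over WT (L2) (0.76 to 6.0) and 4.10 over WT (L3) (2.02 to 7.26). *gpx-1* had 19.5 reads in *gk165*, against 4 for WT (L2) and 16.5 for WT (L3), with log2 ratios of 2.04 over WT (L2) (0.49 to 4.08) and 1.25 over WT (L3) (0.31 to 2.38). *gpx-2*, with 52 reads in *gk165*, against 8 for WT (L2) and 55 for WT (L3), was just short of 2-fold over WT (L3), with a log2 ratio of 0.93 (0.35 to 1.5).

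Of 5 glutaredoxins, which reduce disulphides with glutathione, *glrx-5* was called higher in *gk165*. It had 32 reads in *gk165*, against 3.5 for WT (L2) and 21 for WT (L3), with log2 ratios of 2.94 over WT (L2) (1.25 to 4.71) and 1.62 over WT (L3) (0.78 to 2.49). None of the 5 was called in R244H. Of 5 other genes known to respond to SKN-1, 3 are listed, *nit-1*, *ptps-1* and *sdz-8*, and none was called in either mutant, on at most 12 reads in any library.

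Of 9 regulators of this response, all listed, 1 was called in *gk165*, where 10.5% of all genes were called lower, and 0 in R244H. The 1 gene was *gsk-3*, a kinase known to restrain SKN-1, with 11 reads in *gk165*, against 24 for WT (L2) and 65 for WT (L3), and log2 ratios of -1.38 over WT (L2) (-2.55 to -0.29) and -1.55 over WT (L3) (-2.62 to -0.62). *wdr-23*, a repressor of SKN-1, had 29 reads in *gk165*, against 9 for WT (L2) and 42 for WT (L3). Its log2 ratio was 1.44 over WT (L2) (0.32 to 2.70) and 0.48 over WT (L3) (-0.26 to 1.19), so it was above L2 worms and within counting error of L3 worms. The kinase gene *pmk-1* was likewise above L2 worms only, at 1.97 (0.13 to 4.41), against 0.33 over WT (L3) (-0.72 to 1.39). *nsy-1*, a kinase gene upstream of *pmk-1*, was below L3 worms at -2.06 (-3.56 to -0.83) and at -0.25 over WT (L2) (-2.15 to 1.65). *mdt-15* was also below L3 worms, at -0.80 (-1.55 to -0.16), and at -0.16 over WT (L2) (-1.08 to 0.70). The regulators thus did not share a direction in *gk165*. *skn-1* itself had 31 reads in *gk165*, against 36 for WT (L2) and 91 for WT (L3), and 86 reads in R244H, against 111 for WT (L4) and 102 for WTR. In *gk165* its log2 ratio was -0.47 over WT (L2) (-1.21 to 0.27) and -0.54 over WT (L3) (-1.18 to 0.06), within counting error. In R244H it was 0.66 over WT (L4) (0.24 to 1.08) and 0.17 over WTR (-0.26 to 0.60).

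**Figure D5:**
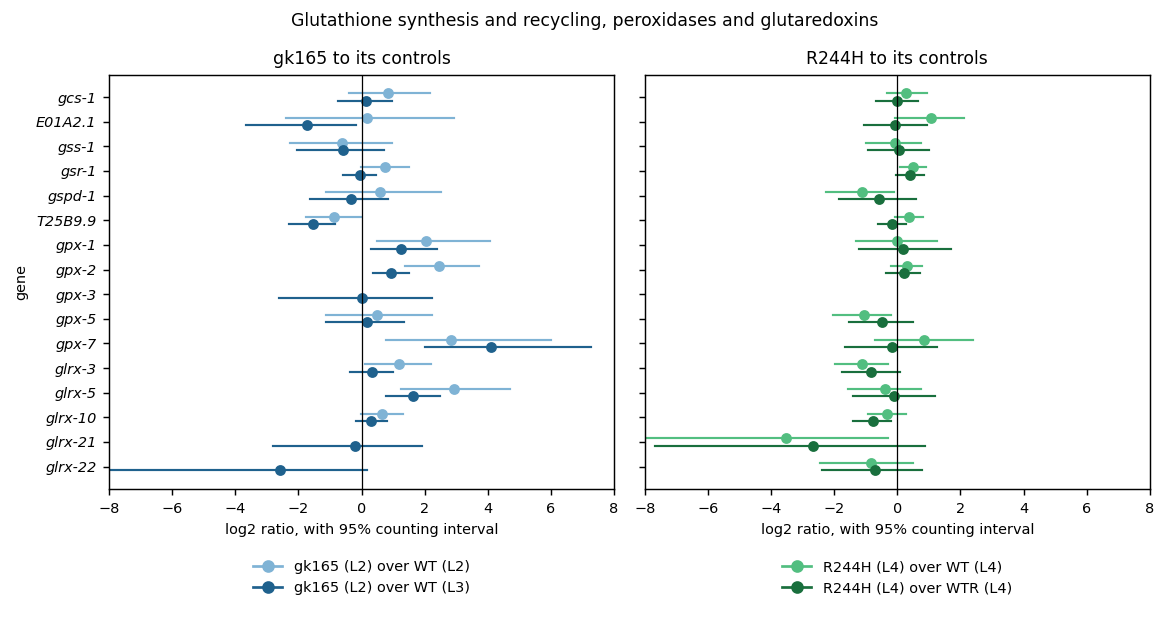
Log2 ratio of the listed genes of glutathione synthesis and recycling, glutathione peroxidases and glutaredoxins in *gk165* and in R244H to both controls of each, with 95% counting intervals; genes with at most 3 reads in both libraries have no point. *gpx-1*, *gpx-7* and *glrx-5* lie above 1 on the log2 scale against both controls in *gk165*, and no gene does so in R244H.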

How the data were processed

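RNA of whole worms was measured in 6 libraries, 1 for each condition, and samples were grouped by their labels. Per the study's methods and the submitters' processing notes, the authors trimmed paired reads (Trim Galore 0.4.1, cutadapt 1.14), aligned them to WBcel235 with TopHat2 2.1.0 (Bowtie2), counted them on merged exons of Ensembl release 94 with featureCounts and used edgeR 3.26.8. The deposited values are log2 RPKM per merged exon. The authors' average log2 CPM column was not used, and the filter that decided which exons are listed is not given in the sources used here.

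Every deposited log2 value carries an offset of 0.54 CPM. It was removed, and reads were recovered from the steps of the values: 100% of non-zero values fell on hundredths of a read, and 51.4% to 62.1% on whole reads. One read was worth 1.25 to 4.30 CPM. Reads were summed over the exons of a gene and divided by the authors' effective library size. A bound uses 3 reads in place of 0 and leaves out the counting error of the other library. Genes with 3 reads or fewer in all libraries compared were left out. Intervals (Clopper-Pearson, 95%) cover counting error only and leave out variation between animals and between libraries. They treat reads as independent molecules, so they are too narrow where PCR copies were counted.

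The members and gene lists were chosen with earlier results of these data known. Values in every library are given for members called in a mutant, the 5 with the highest mean level, *gst-4*, *gst-10*, *gst-42*, *gst-43* and the omega and kappa members; outside the family only genes of the lists and *sdhb-1* are named. Other members are named for a count, a cluster or an overlap. Of these, *gst-5*, *gst-6*, *gst-11* and *gst-13* are given with values, chosen after these were seen. The alternatives were a 2-fold limit alone, a 3-fold limit, the first control alone, the mean over exons of deposited RPKM with a pseudocount of 1 or 0.1, ratios centred on the median gene, more than 20 reads, the exon with the most reads, and no exons that overlap another gene (Ensembl release 115). The 3'-most exon, a minimum of 10 reads, and totals without pairs of genes were chosen after seeing the data. No sequences are shown. The scripts were tested on simulated data. Computation was done in Python 3.11.15 with scipy 1.17.1, pandas 2.3.3 and numpy 2.4.6, and plots with matplotlib 3.10.9.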

Additional observations from a re-analysis of the deposited data

How the results depend on the processing

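The direction of the log2 ratio of every gene called in a mutant was kept in all 102 values computed for 18 ratios under the alternatives. These genes were selected for ratios of at least 2-fold against both controls, and the alternatives use the same reads. A kept direction is therefore no separate support. For *gst-22* no ratio was given with the exon with the most reads, with the 3'-most exon or without overlapping exons. The 102 values leave these settings of *gst-22* out. The log2 bound for *gst-3* in *gk165* over WT (L2) was 1.34 with the exon with the most reads or the 3'-most exon. Which genes were called depended on the rule. In *gk165* the count of members called lower was 3 with 2-fold alone (also *gsto-1* and *gstk-1*) and 2 with the first control alone (also *gstk-1*), and with the mean over exons of deposited RPKM, with a pseudocount of 1 or 0.1, there were 6 higher and 4 lower. *gst-7* was not called with a 3-fold limit, with ratios centred on the median gene or with the mean over exons, and *gst-3* was not with more than 20 reads. In R244H the count called higher was 1 with a 3-fold limit (*gst-9*), 0 with more than 20 reads, 2 with 10 or more reads, and 2 with the exon with the most reads or the 3'-most exon (*gst-9* and *gst-24*). With the mean over exons at either pseudocount the count stayed at 4, but *gst-3* was called in place of *gst-39*. The count called lower in R244H was 5 with the mean over exons at either pseudocount and 2 with centred ratios (also *gst-1*). Counts over all genes also moved: in *gk165* 917 genes were called higher and 993 lower, against 1898 and 2348 with the mean over exons, and in R244H 715 were called higher and 1733 lower, against 1448 and 3109.

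The log2 ratio of the family total in *gk165* over WT (L2) was 1.144 with the 3'-most exon and 0.29 without *gst-4* and *gst-7*. Over WT (L3) it changed sign, to 0.00090 with the exon with the most reads, 0.10 with the 3'-most exon and 0.33 without *gst-1* and *gst-10*, and was -0.57 without *gst-4* and *gst-7*. In R244H it changed sign without *gst-1* and *gst-10*, to 0.35 over WT (L4) and 0.20 over WTR. The median log2 ratio of the members changed sign in *gk165* over WT (L3) with the 3'-most exon (0.51), and in R244H over WTR with the mean over exons (0.11 with a pseudocount of 1 and 0.14 with 0.1) and without overlapping exons (0.015); 20 other medians kept their sign. The 3'-most exon, the minimum of 10 reads and the totals without pairs of genes were chosen after seeing the data, and the cause of these changes was not tested beyond the genes or reads each alternative leaves out. No paired analysis was possible because each condition has 1 library, and no replicate could be left out. Depth also limits these values: a member with 3 reads has 12.9 CPM in WT (L2), so a low gene can be seen in one library and missed in another by counting error alone.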
